A study of Mus musculus with 27 samples.

Results

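The 7 long noncoding RNA genes described here carry small nucleolar RNAs (snoRNAs) in their introns and were followed through chromatin, nucleoplasm and cytoplasm of 3 mouse cell types. They are Gas5, Snhg1, Snhg3, Snhg5, Snhg6, Snhg8 and Snhg12. They were taken by symbol, as GENCODE vM21 names their Ensembl identifiers. No measured value entered that rule, but the genes were chosen with earlier results of these data known. All 7 had a row among the 53379 genes of the TPM table (transcript abundance scaled to a fixed library total), and 3 of them, Gas5, Snhg3 and Snhg12, had a row among the 37332 genes of the count table. Counts covered the whole gene span from first to last base, introns and nested snoRNA genes included, whereas TPM is an estimate for annotated transcripts per unit of their length.

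The libraries hold RNA longer than 200 nt from which ribosomal RNA had been removed, made with a stranded kit and read as 100 bp pairs. The embryonic stem cells (mESC) were the E14 line, grown on gelatin with the cytokine LIF. The neural progenitors (mNPC) were 1 line established by the submitters and fed EGF and FGF daily in medium with B27 lacking vitamin A. The neurons (mCtx) were primary cortical cultures kept for 5 days. No deletion, transgene or drug treatment is named for any group. From each cell type RNA was taken bound to chromatin, free in the nucleoplasm and from the cytoplasm, and 3 biological replicates of each made 27 libraries in 9 groups.

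A host gene of this kind is transcribed and spliced, its exons are joined, and its excised introns are trimmed down to snoRNAs. Box C/D snoRNAs guide 2'-O-methylation and box H/ACA snoRNAs guide pseudouridylation, mostly of ribosomal RNA, and both classes work in the nucleolus bound to their core proteins. The spliced host RNA reaches the cytoplasm, and for Gas5 and several others it is known to be translated only into short peptides and degraded by nonsense-mediated decay. Many host genes start transcription at a pyrimidine-rich 5' terminal oligopyrimidine sequence, as genes for ribosomal proteins do.

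The nested snoRNAs are what separates these loci from other noncoding genes, so those that the results turn on are shown first, as the GENCODE vM21 transcript set (GRCm38, the build of mm10) gives them. Capitals mark the C box (TGATGA) and the D box (CTGA) of a box C/D snoRNA, or the ACA box near the 3' end of a box H/ACA snoRNA. Snora73a and Snora73b lie in Snhg3, are 205 nt long and match at 198 of 205 positions (96.6%), and they are the only nested snoRNAs longer than the 200 nt size selection. Snord50a and Snord50b lie in Snhg5 and match at 71 of 72 positions (98.6%). Reads of such near-identical pairs cannot be split with certainty. Snord87 lies in Snhg6, Snora24 in Snhg8, Snora61 in Snhg12 and Snord47 in Gas5.
Snora73a: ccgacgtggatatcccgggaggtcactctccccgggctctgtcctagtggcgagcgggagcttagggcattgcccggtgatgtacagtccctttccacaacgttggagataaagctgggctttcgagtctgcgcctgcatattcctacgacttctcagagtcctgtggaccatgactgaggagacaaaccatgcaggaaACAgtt
Snora73b: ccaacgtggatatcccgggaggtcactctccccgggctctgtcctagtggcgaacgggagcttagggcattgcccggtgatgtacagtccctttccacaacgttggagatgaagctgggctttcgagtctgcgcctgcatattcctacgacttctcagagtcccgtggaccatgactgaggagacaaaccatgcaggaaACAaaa
Snord50a: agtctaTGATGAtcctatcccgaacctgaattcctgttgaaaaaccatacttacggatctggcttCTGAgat
Snord50b: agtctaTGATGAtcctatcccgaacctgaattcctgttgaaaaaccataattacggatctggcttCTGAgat
Snord47: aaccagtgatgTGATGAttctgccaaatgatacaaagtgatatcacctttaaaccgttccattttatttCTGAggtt
Snord87: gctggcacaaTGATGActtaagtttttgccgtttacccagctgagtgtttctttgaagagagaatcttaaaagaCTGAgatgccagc
Snora24: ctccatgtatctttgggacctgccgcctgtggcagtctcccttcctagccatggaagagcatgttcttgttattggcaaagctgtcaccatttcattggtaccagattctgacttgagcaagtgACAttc
Snora61: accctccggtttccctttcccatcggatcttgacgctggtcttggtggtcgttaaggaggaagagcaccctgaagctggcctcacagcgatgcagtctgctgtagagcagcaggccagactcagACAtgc

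In mm10 coordinates, Gas5 (ENSMUSG00000053332) spans chr1:161034422-161038539 on the plus strand, Snhg1 (ENSMUSG00000108414) chr19:8723475-8726443 on the plus strand and Snhg12 (ENSMUSG00000086290) chr4:132308623-132311024 on the plus strand. Snhg3 (ENSMUSG00000085241) spans chr4:132348014-132353686, Snhg5 (ENSMUSG00000097195) chr9:88521050-88522929, Snhg6 (ENSMUSG00000098234) chr1:9941959-9944118 and Snhg8 (ENSMUSG00000104960) chr3:123507552-123508404, all on the minus strand. The annotation places 29 snoRNA identifiers inside these spans on the same strand, from 60 to 205 nt long, and 27 of them have a row of counts. Gas5 holds 10 identifiers, Snhg1 8, Snhg12 5, Snhg3 and Snhg5 2 each, and Snhg6 and Snhg8 1 each. The identifiers without counts are second entries of Snord80 in Gas5 and Snora16a in Snhg12. Each covers nearly the same bases as the entry of that name with counts, so identifiers exceed distinct snoRNAs in these hosts. All 29 lie in an intron of at least 1 annotated host transcript, and 27 of them also overlap an exon of at least 1 other. Snora73b and Snord87 overlap no exon of their host. In Snhg1, Snhg8 and Snhg12 the exons of all transcripts together cover the whole span (2969, 853 and 2402 bases). They therefore cover every nested snoRNA of these hosts. Whether the overlap is full in the other hosts, or any single transcript keeps the intron, was not checked.

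Total counts per library ran from 11249862 to 19871198. The cell labels held against their markers: in cytoplasm, the summed level of 6 stem cell genes was 3607 to 4000 CPM (counts scaled to effective library size) in mESC against at most 1.35 in the other cell types, and 6 neuronal genes summed to 4863 to 5277 in mCtx against 325 to 755 elsewhere. The mNPC cytoplasm held 3032 to 3760 CPM of 6 neural progenitor genes, and also 1020 to 1123 CPM of 3 oligodendrocyte lineage genes (Olig1, Pdgfra and Sox10) and 86.1 to 142 CPM of 3 astrocyte genes. The part of those cells in the progenitor values was not tested. In mCtx the progenitor list stood at 800 to 965 CPM, the oligodendrocyte lineage list at 75.1 to 93.8 and the astrocyte list at 6.57 to 8.82. In bulk RNA, fewer cells of a type and less RNA per cell cannot be told apart. The mESC libraries numbered 1 stood apart from replicates 2 and 3 in several host values below, so results that rest on mESC were also computed without them.

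Much of what was counted over a host span lay over the nested snoRNA genes, and how much depended on the fraction. In Gas5, which hosts 10 of the 29 identifiers, the 9 nested genes with counts held 65.3% ± 1.54 (SD, n = 3) of the Gas5 count in mESC chromatin and 39.6% ± 11.6 in mESC cytoplasm. In mNPC the share fell from 52.6% ± 2.36 in chromatin through 21.4% ± 4.03 in nucleoplasm to 6.27% ± 1.11 in cytoplasm. In mCtx it went from 64.2% ± 1.01 through 46.1% ± 1.26 to 13.8% ± 1.22. The chromatin and cytoplasm libraries did not overlap in this share in any of the 3 cell types. For Snhg12 the nested share was 56.3% ± 1.35 in mESC chromatin and 47.1% ± 9.86 in mESC cytoplasm, 52.0% ± 2.55 and 27.1% ± 1.09 in mNPC, and 31.1% ± 4.11 and 23.3% ± 4.72 in mCtx. A read that touches 2 nested genes was counted for both, so these shares are upper limits.

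**Figure D1:**
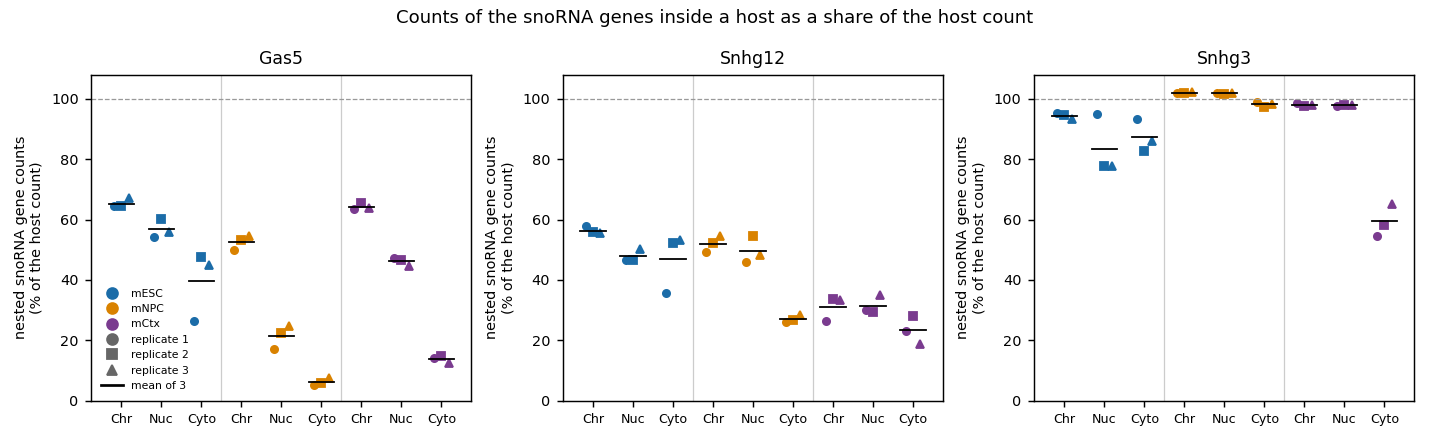
Counts of the nested snoRNA genes as a percent of the host count (vertical axis, linear) in each of 27 libraries, for Gas5, Snhg12 and Snhg3. Points are libraries, bars are means of 3, colours are cell types, and the dashed line is 100%. The Gas5 share is lower in cytoplasm than in chromatin in each cell type, and the Snhg3 share stays between 54.7% and 102.3%.

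For Snhg3 the count was close to a count over 2 snoRNA genes. Snora73a and Snora73b together made up 94.4% ± 0.95 of the Snhg3 count in mESC chromatin, 102% ± 0.3 in mNPC chromatin and 98.0% ± 0.43 in mCtx chromatin. The lowest share was 59.4% ± 5.36, in mCtx cytoplasm. The sum exceeded the host count in the 6 chromatin and nucleoplasm libraries of mNPC, which places some reads under both snoRNAs. The protein-coding gene Rcc1, which encodes a nucleotide exchange factor for Ran and overlaps Snhg3 on the same strand, had a count at least as high as Snhg3 in 27 of 27 libraries, while the antisense gene Gm17300 had at most 13 reads. Reads were thus assigned to every gene they overlapped on their own strand, and a span count does not tell exons, introns and nested snoRNAs of a host apart.

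Gas5, the growth arrest-specific transcript that hosts 10 snoRNA identifiers, was the most abundant of the 7 by TPM in all 9 groups. Its span counts in replicates 1, 2 and 3 were 5762, 6038 and 5182 in mESC chromatin, then 2276, 1983 and 1779 in the nucleoplasm, then 907, 643 and 608 in the cytoplasm. In mNPC they were 3354, 3963 and 3004 for chromatin, 1158, 1461 and 1482 for nucleoplasm, 3514, 3562 and 2883 for cytoplasm. In mESC every chromatin library was above every cytoplasm library, whereas in mNPC the ranges overlapped. In mCtx the counts were 1310, 1636 and 1364 for chromatin, 1177, 1383 and 1371 for nucleoplasm, 1760, 1684 and 1336 for cytoplasm. After scaling to effective library size, Gas5 stood at 290 ± 22.7 CPM in mESC chromatin and 41.3 ± 6.57 in mESC cytoplasm, at 208 ± 9.1 and 195 ± 11.7 in mNPC, and at 119 ± 1.1 and 105 ± 4.75 in mCtx (SD, n = 3). The chromatin level was thus 7.01-fold the cytoplasmic level in mESC, 1.07-fold in mNPC and 1.13-fold in mCtx, where the scaled ranges did not overlap.

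By edgeR's quasi-likelihood test with Benjamini-Hochberg adjustment over 18249 genes, Gas5 was higher in chromatin than in cytoplasm of mESC by a log2 fold change of 2.81 (SE 0.11, adjusted p = 1.59e-17), and by 2.98 without the mESC libraries numbered 1. In mNPC the log2 fold change was 0.09 (SE 0.10, edgeR adjusted p = 0.426) and in mCtx 0.18 (SE 0.10, edgeR adjusted p = 0.114). The mCtx value depended on scaling, being 0.46 with median-ratio size factors (edgeR adjusted p = 0.000263) and -0.39 with total-count scaling. The TPM of Gas5 was 313.2, 427.6 and 490.3 in mESC chromatin and 247.3, 109.3 and 101.2 in mESC cytoplasm, where replicate 1 was the high one. It was 103.4, 107.2 and 113.6 against 148.8, 141.3 and 120.1 in mNPC, and 110.8, 135.9 and 131.9 against 79.14, 78.09 and 76.12 in mCtx. In TPM every chromatin library was therefore above every cytoplasm library in mESC and mCtx and below every one in mNPC, though limma on log2(TPM + 1) did not call the mNPC difference (-0.33, SE 0.26, adjusted p = 0.279).

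With the nested counts taken off, the remaining Gas5 count, which is a lower limit on reads elsewhere in the span, had a different order. It was 101 ± 11.3 CPM in mESC chromatin and 25.4 ± 9.13 in mESC cytoplasm. In mNPC it was 98.4 ± 3.63 CPM in chromatin and 183 ± 8.75 in cytoplasm, and in mCtx 42.6 ± 0.91 and 90.5 ± 4.55 (SD, n = 3). The remainder was higher in chromatin in mESC and higher in cytoplasm in mNPC and mCtx, with no overlap between the 3 libraries of each fraction in any cell type. No test was run on the remainder.

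Snhg1, which hosts 8 snoRNA identifiers, stood high in mESC and low in the other cells. Its TPM was 160.4, 182.2 and 196.0 in mESC chromatin, 217.0, 125.2 and 133.0 in its nucleoplasm, 169.9, 68.18 and 71.62 in its cytoplasm. In mNPC chromatin it was 23.43, 26.89 and 29.49, and in mCtx chromatin 23.03, 26.47 and 29.05. The 3 mESC groups overlapped each other and lay above all 18 other libraries, whose groups also overlapped their neighbours in level. Between chromatin and cytoplasm, Snhg1 was higher in chromatin in mESC (log2 fold change 0.92, SE 0.29, limma adjusted p = 0.00655) and in mCtx (0.73, SE 0.29, limma adjusted p = 0.025), but not in mNPC (0.19, SE 0.29, limma adjusted p = 0.625). The mESC call was lost when cytoplasm replicate 2 was left out (0.69, limma adjusted p = 0.0513), and the mCtx call was lost when chromatin replicate 2 or 3 or cytoplasm replicate 1 or 3 was left out (0.65 to 0.72).

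Snhg12, which hosts the box H/ACA snoRNAs Snora16a, Snora44 and Snora61 and the box C/D snoRNA Snord99, fell from stem cells to neurons in every fraction and changed its side between fractions. Its span counts were 2374, 2479 and 1997 in mESC chromatin and 1198, 763 and 706 in mESC cytoplasm. In mNPC they were 434, 610 and 456 in chromatin and 433, 384 and 294 in cytoplasm, and in mCtx 110, 113 and 111 in chromatin and 304, 266 and 229 in cytoplasm. Chromatin was the higher fraction in mESC, while in mCtx all 3 cytoplasm libraries were above all 3 chromatin libraries. In scaled terms that was 117 ± 12.3 against 50.9 ± 11.9 CPM in mESC, 30.2 ± 4 against 21.5 ± 1.08 in mNPC and 9.3 ± 0.88 against 17.6 ± 1.58 in mCtx (SD, n = 3). The log2 fold change of chromatin over cytoplasm was 1.20 (SE 0.14, edgeR adjusted p = 1.73e-08) in mESC, 0.49 (SE 0.14, edgeR adjusted p = 0.00375) in mNPC and -0.92 (SE 0.16, edgeR adjusted p = 7.79e-06) in mCtx.

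The TPM of Snhg12 gave another picture in neurons. It was 26.4, 20.08 and 23.58 in mCtx chromatin and 13.17, 10.98 and 12.06 in mCtx cytoplasm, so chromatin was higher (0.89, SE 0.21, limma adjusted p = 0.000553) where the counts had it lower. Rescaling TPM by the median ratio over genes turned this to -0.52 (SE 0.15, limma adjusted p = 0.00381). The remainder of the Snhg12 count after the nested genes were taken off was 50.97 ± 5.56 CPM in mESC chromatin and 27.7 ± 12 in mESC cytoplasm, 14.5 ± 1.45 and 15.7 ± 0.95 in mNPC, and 6.42 ± 0.89 and 13.5 ± 1.84 in mCtx. Taking off the reads over the nested genes left mCtx cytoplasm above mCtx chromatin in all 3 libraries. Those reads can come from a snoRNA, its intron or an overlapping host exon.

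Snhg3, the host of the Snora73 pair, showed the widest range of the 3 hosts with counts and the lowest TPM of the 7 in 7 of 9 groups. Its span counts were 43438, 46376 and 31705 in mESC chromatin, 29280, 7588 and 7072 in its nucleoplasm, 6615, 4566 and 4656 in its cytoplasm. They were 28798, 29498 and 25021 in mNPC chromatin, 27268, 44871 and 26957 in mNPC nucleoplasm, 2566, 2307 and 2098 in mNPC cytoplasm. Replicate 1 of mESC nucleoplasm held about the chromatin level rather than that of the other nucleoplasm libraries. In mCtx the counts were 2121, 1549 and 1253 for chromatin, 1469, 1467 and 1705 for nucleoplasm, 276, 278 and 187 for cytoplasm. Nucleoplasm of mNPC (2584 ± 673 CPM) and cytoplasm of mCtx (16.2 ± 1.36 CPM) were 160-fold apart.

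Chromatin exceeded cytoplasm in Snhg3 span counts in every cell type, by log2 fold changes of 2.77 in mESC (SE 0.33, edgeR adjusted p = 2.12e-08), 3.62 in mNPC (SE 0.34, edgeR adjusted p = 3.16e-10) and 3.09 in mCtx (SE 0.34, edgeR adjusted p = 6.19e-09). Snhg3 TPM did not follow. In mESC it was 22.28, 29.57 and 33.31 in chromatin and 15.56, 45.17 and 49.14 in cytoplasm, with replicate 1 low in both. In mNPC it was 2.23, 2.59 and 2.27 against 4.2, 5.9 and 3.92, and in mCtx 1.93, 4.72 and 0.95 against 4.22, 4.36 and 3.25. The cytoplasm mean was the higher in each cell type, with log2 fold changes of -0.22, -0.74 and -0.62 (limma adjusted p = 0.621, 0.0893 and 0.127), none of which passed. After rescaling, TPM was lower in chromatin in all 3 cell types, by -0.95, -1.25 and -1.62 (limma adjusted p = 0.0068, 0.000745 and 3.98e-05).

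**Figure D2:**
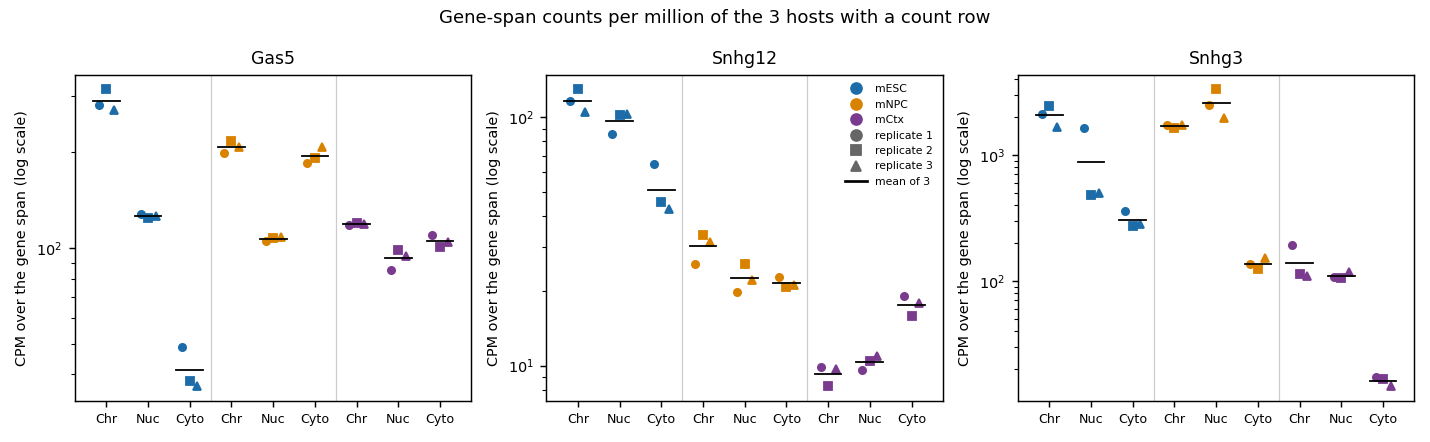
Gene-span CPM (log axis) of Gas5, Snhg12 and Snhg3 in chromatin (Chr), nucleoplasm (Nuc) and cytoplasm (Cyto) of each cell type. Points are single libraries, shaped by replicate, and bars are means of 3. Gas5 is 7.01-fold higher in chromatin than in cytoplasm of mESC and near level in mNPC, and Snhg3 is lowest in mCtx cytoplasm at 16.2 CPM.

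Snhg5, the host of Snord50a and Snord50b, and Snhg12 were the members whose TPM was called higher in chromatin in all 3 cell types. Snhg5 stood at 63.04, 130.3 and 143.8 in mESC chromatin against 23.91, 31.06 and 25.81 in cytoplasm. It stood at 23.79, 28.22 and 24.89 against 12.88, 9.17 and 7.16 in mNPC, and at 41.5, 42.28 and 39.71 against 12.45, 11.72 and 10.78 in mCtx. No cytoplasm library reached any chromatin library of its cell type. Snhg5 was higher in chromatin by log2 fold changes of 1.94 in mESC (SE 0.27, limma adjusted p = 1.42e-06), 1.34 in mNPC (SE 0.27, limma adjusted p = 0.000201) and 1.74 in mCtx (SE 0.27, limma adjusted p = 4.63e-06). With rescaled TPM these were 1.19, 0.82 and 0.30, and the mCtx value no longer passed (limma adjusted p = 0.127). Nucleoplasm took a middle place in mESC and mCtx, at 44.8 ± 15 and 21.0 ± 0.38 TPM, and the lowest in mNPC, at 5.6 ± 1.61.

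Snhg6, the host of Snord87, went the other way in progenitors and neurons. Its TPM was 7.13, 9.31 and 10.25 in mNPC chromatin, 29.12, 12.87 and 17.91 in its nucleoplasm, 53.12, 54.97 and 47.68 in its cytoplasm. In mCtx it was 10.6, 9.83 and 15.84 for chromatin, 23.13, 23.49 and 24.43 for nucleoplasm, 43.6, 45.51 and 39.33 for cytoplasm. In both cell types the means rose from chromatin through nucleoplasm to cytoplasm, and no library of one fraction overlapped another fraction. In mESC the 3 fractions lay together, with 37.06, 45.59 and 45.35 in chromatin and 41.14, 27.72 and 26.18 in cytoplasm. Snhg6 was lower in chromatin than in cytoplasm by log2 fold changes of -2.43 in mNPC (SE 0.22, limma adjusted p = 5.19e-09) and -1.77 in mCtx (SE 0.22, limma adjusted p = 1.87e-07). That made cytoplasm 5.84-fold and 3.54-fold the chromatin level. In mESC the value was 0.44 (SE 0.22, limma adjusted p = 0.0757), and 0.73 without the libraries numbered 1 (limma adjusted p = 0.0157).

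Snhg8, the host of Snora24, resembled Snhg6 in this. Its TPM was 10.37, 13.71 and 14.61 in mNPC chromatin and 49.22, 47.14 and 49.84 in mNPC cytoplasm, and 9.54, 7.43 and 11 against 28.05, 28.05 and 25.52 in mCtx. In mESC it was 59.8, 82.14 and 69.76 in chromatin, 53.96, 60.69 and 58.93 in its nucleoplasm, 81.54, 58.54 and 59.14 in its cytoplasm, with every fraction overlapping the others. The log2 fold change of chromatin over cytoplasm was -1.85 in mNPC (SE 0.17, limma adjusted p = 5.1e-09), -1.46 in mCtx (SE 0.17, limma adjusted p = 5.24e-08) and 0.09 in mESC (SE 0.17, limma adjusted p = 0.647). In TPM the nucleoplasm range of Snhg8 overlapped that of chromatin in mNPC (15.0 ± 2.72 against 12.9 ± 2.23) and in mCtx (10.3 ± 1.39 against 9.32 ± 1.8). After rescaling the ranges did not overlap, and nucleoplasm was higher than chromatin by 1.22 in mNPC and 0.445 in mCtx (limma adjusted p = 4.14e-06 and 0.0347).

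**Figure D3:**
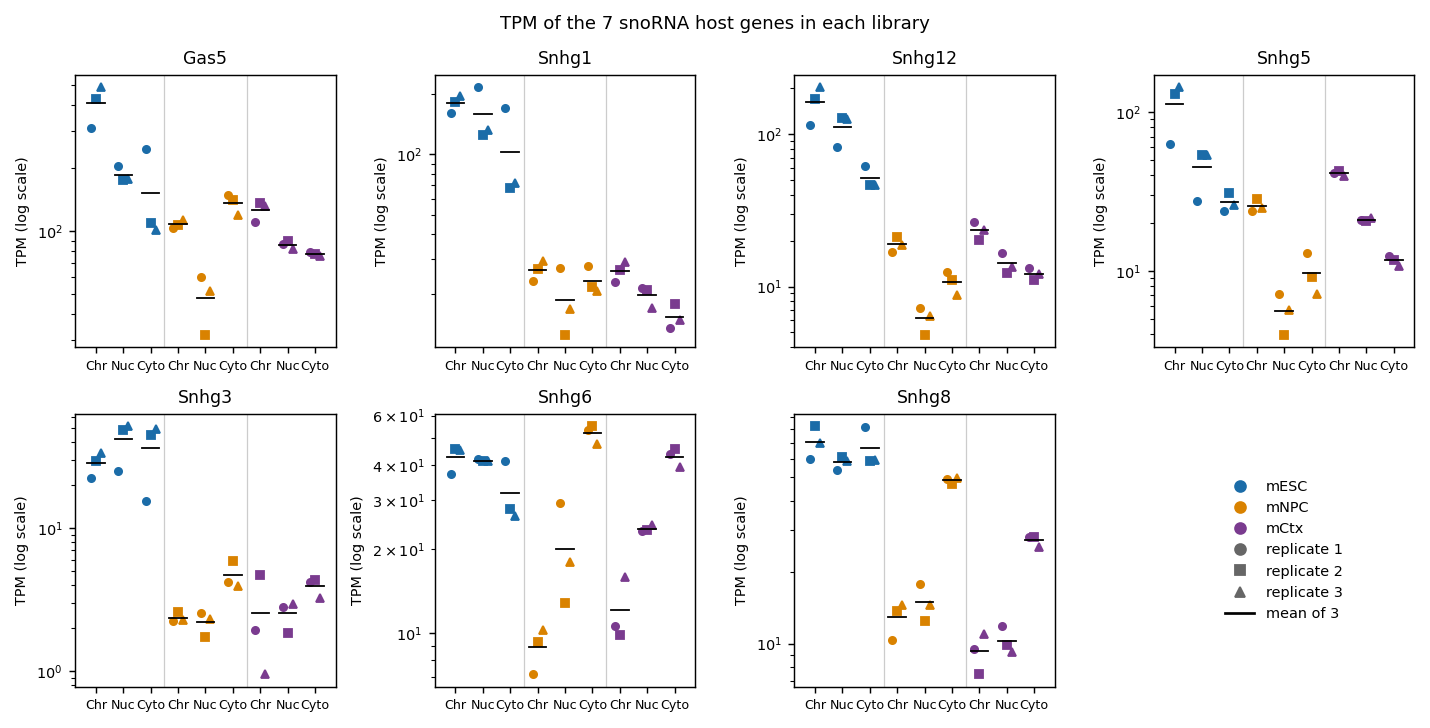
TPM (log axis) of the 7 host genes in each of 27 libraries, by cell type and fraction, with points shaped by replicate and bars for means of 3. Snhg6 and Snhg8 are higher in cytoplasm than in chromatin of mNPC and mCtx, and Snhg5 is higher in chromatin in all 3 cell types.

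The comparison of chromatin with cytoplasm asks where host RNA stood higher among the RNAs of its fraction. Levels were scaled within each library, so a fold between fractions does not give how a host's molecules were split within the cell. In mESC, 3 of 3 hosts with counts passed, all higher in chromatin, where 77.5% of all tested genes passed in either direction and 44.6% were higher. In mNPC 2 of 3 passed, both higher (background 69.5% in either direction and 37.0% higher), and in mCtx 2 of 3 passed, 1 higher and 1 lower (background 73.3%, with 35.6% higher and 37.6% lower). Snhg3 was among the higher hosts in each cell type. Its chromatin count lay mostly over the Snora73 pair (94.4%, 102% and 98.0% in mESC, mNPC and mCtx), and its TPM difference passed in none. By TPM, limma called 4 of 7 in mESC (background 74.2%), all higher, where 56.1% of genes were higher. It called 4 of 7 in mNPC (background 60.8%), 2 higher and 2 lower, and 6 of 7 in mCtx (background 80.1%), 4 higher and 2 lower, where 69.0% of genes were higher. By TPM 43.8% of genes were higher in mNPC chromatin. Most genes differed between fractions, so these shares do not set the hosts apart from other genes. What varied was direction: Snhg6 and Snhg8 were among the 17.0% of genes lower in mNPC chromatin by TPM and the 11.1% lower in mCtx chromatin.

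The median of all genes was itself shifted, by log2 0.36, 0.06 and 0 for counts and by 0.59, 0.30 and 1.23 for TPM in mESC, mNPC and mCtx. Rescaling TPM by the median ratio left shifts of 0.17, 0.15 and 0.29. Relative to that, the TPM calls of higher chromatin in mCtx for Gas5, Snhg1 and Snhg12 turned into lower values (-0.80, -0.70 and -0.52), and that of Snhg5 shrank to 0.30, while Snhg6 and Snhg8 moved further down (-3.15 and -2.81). In mESC the rescaled value of Snhg8 was -0.66 (limma adjusted p = 0.00254). The call of Snhg1 in mESC and that of Snhg12 in mNPC no longer passed after rescaling (limma adjusted p = 0.643 and 0.158). With rescaled TPM 5 of 7 members passed in mESC (background 72.7%), 5 of 7 in mNPC (background 69.3%) and 6 of 7 in mCtx (background 76.8%).

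**Figure D4:**
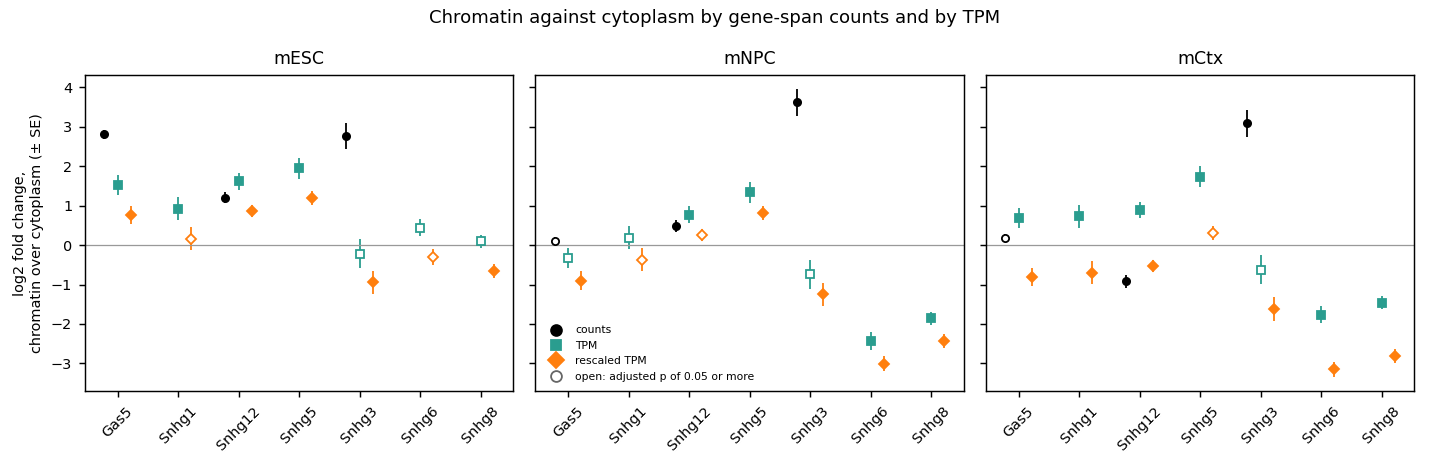
Log2 fold change of chromatin over cytoplasm with its standard error for the 7 hosts in each cell type, by span counts (circles, 3 hosts), TPM (squares) and rescaled TPM (diamonds). Open symbols have an adjusted p of 0.05 or more. Counts and TPM lie on opposite sides of 0 for Snhg3 in each cell type, from 2.77 against -0.22 in mESC to 3.62 against -0.74 in mNPC.

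Counts over the nested snoRNA genes lay on the chromatin side in stem cells and progenitors without exception. All 27 were higher in chromatin than in cytoplasm in mESC (median log2 fold change 2.93, range 1.01 to 5.28) and all 27 in mNPC (median 2.92, range 1.06 to 5.81), where 44.6% and 37.0% of all tested genes were higher. In mCtx 18 of 27 were higher and 2 lower (median 1.47, range -1.21 to 3.89), against 35.6% and 37.6% of all genes. A read over a snoRNA gene can come from the snoRNA, its intron or a host exon that overlaps it, and these cannot be told apart. All but the Snora73 pair are shorter than the 200 nt that the RNA selection kept.

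The nested genes of Gas5 were higher in chromatin in all 3 cell types, 9 of 9 each time, with medians of 3.89, 3.27 and 2.51. Snord47 had 358, 413 and 343 reads in mESC chromatin and 15, 16 and 10 in mESC cytoplasm, and 117, 128 and 97 against 3, 8 and 3 in mNPC. Its log2 fold changes were 4.58, 4.62 and 3.17 (edgeR adjusted p = 9.1e-14, 1.88e-12 and 2.11e-08). In mNPC the Gas5 span itself did not differ between these fractions (0.09), although its 9 nested genes were each called higher in chromatin, with the lowest of them at 2.39. Those 9 and the host share reads.

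For the single-snoRNA hosts, which have no span count, counts over the nested gene can be set beside the host's TPM. Snord87, in an intron of Snhg6, had 44, 54 and 41 reads in mESC chromatin and 7, 7 and 4 in cytoplasm, and 19, 24 and 20 against 2, 2 and 4 in mNPC. It was higher in chromatin by 2.75 in mESC and 2.95 in mNPC (edgeR adjusted p = 4.16e-06 and 2.11e-05), whereas Snhg6 TPM in mNPC was lower by -2.43. In mCtx Snord87 had 3, 4 and 2 reads in chromatin and 1, 0 and 2 in cytoplasm, and no difference was detectable at that depth (1.78, SE 0.85, edgeR adjusted p = 0.0616). Snora24, in Snhg8, had 306, 339 and 287 reads against 47, 66 and 59 in mESC and 75, 132 and 84 against 48, 47 and 41 in mNPC. It was higher in chromatin by 2.25 and 1.13 in those cells (edgeR adjusted p = 2.29e-09 and 0.000168), and its value in mCtx was -0.26 (SE 0.29, edgeR adjusted p = 0.436).

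The 2 snoRNA genes called lower in mCtx chromatin lay in Snhg1 and Snhg12. Snord22, the last snoRNA of Snhg1, had 156, 127 and 119 reads in mCtx chromatin and 430, 377 and 285 in cytoplasm (-1.09, SE 0.40, edgeR adjusted p = 0.0167), after 3.33 in mESC and 2.92 in mNPC. The other called one was Snora61 of Snhg12, with 17, 21 and 21 reads in chromatin and 49, 42 and 25 in cytoplasm (-0.63, SE 0.24, edgeR adjusted p = 0.0189). None of the 4 nested genes of Snhg12 was higher in mCtx chromatin, and their values ran from -1.21 to -0.02. The Snora73 pair kept values of 3.72 and 3.89 in mCtx.

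**Figure D5:**
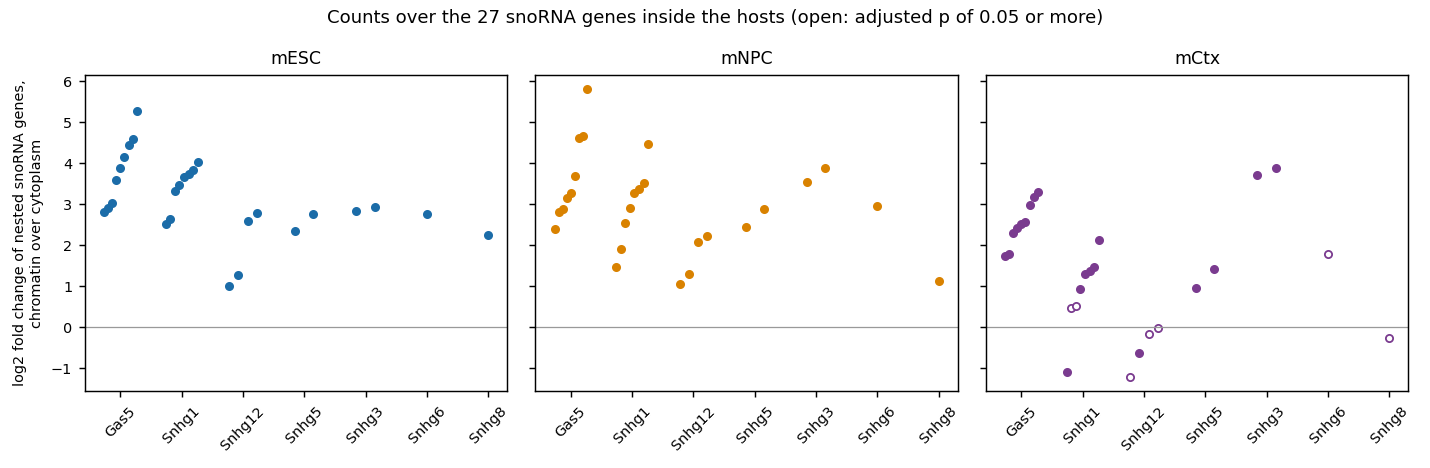
Log2 fold change of chromatin over cytoplasm (vertical axis) for counts over each of the 27 snoRNA genes nested in the 7 hosts (horizontal axis), in each cell type. Each point is 1 snoRNA gene, open where the adjusted p is 0.05 or more. All 27 lie above 0 in mESC and mNPC, and in mCtx the values reach down to -1.21.

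Nucleoplasm differed from chromatin or cytoplasm in some members only. Against chromatin, edgeR called 2 of 3 hosts in mESC (background 66.3%), 2 of 3 in mNPC (background 66.1%) and 1 of 3 in mCtx (background 57.1%). Against cytoplasm it called 3 of 3 in mESC (background 63.1%), 2 of 3 in mNPC (background 50.1%) and 2 of 3 in mCtx (background 58.2%). By TPM, nucleoplasm differed from chromatin in 3 of 7 members in mESC (background 66.4%), 4 of 7 in mNPC (background 59.4%) and 3 of 7 in mCtx (background 69.6%). It differed from cytoplasm in 1 of 7 in mESC (background 37.4%), or in 3 with the replicate number as a block and 4 without the libraries numbered 1, 4 of 7 in mNPC (background 28.8%) and 3 of 7 in mCtx (background 61.9%). Of the 27 nested snoRNA genes, 23, 22 and 12 were lower in nucleoplasm than in chromatin in mESC, mNPC and mCtx (background 36.3%, 33.5% and 26.5% lower), and 26, 15 and 15 were higher in nucleoplasm than in cytoplasm (background 29.9%, 22.6% and 29.6% higher). The Snora73 pair did not pass against chromatin in mNPC, with 0.455 for Snora73a and 0.72 for Snora73b (edgeR adjusted p = 0.254 and 0.0622).

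The comparison of cell types asks how the hosts changed along the path from stem cell to neuron, as far as 3 separate cultures show it. In chromatin all 7 hosts were lower in mNPC than in mESC by TPM (7 of 7, background 71.0% in either direction and 59.9% lower). Their log2 fold changes ran from -3.11 for Snhg3 to -1.89 for Gas5, and all 7 were also lower with rescaled TPM, from -2.25 to -0.95 (background 62.6%, 35.4% lower). All 7 were lower in mCtx than in mESC too, from -3.18 for Snhg3 to -1.34 for Snhg5 (background 72.3% in either direction, 26.0% lower), and with rescaled TPM from -3.04 to -1.56 (background 72.3%, 32.1% lower). Span counts of Gas5, Snhg3 and Snhg12 were lower in mCtx than in mESC chromatin by -1.28, -3.91 and -3.65 (3 of 3, background 80.3%, 47.4% lower).

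Counts and TPM parted for Snhg3 between progenitors and the other cells. Between mESC and mNPC chromatin its count was about level (-0.30, SE 0.305, edgeR adjusted p = 0.378), while its TPM was lower by -3.11 (SE 0.37, limma adjusted p = 2.07e-07). Between mNPC and mCtx chromatin its count was lower by -3.61 (SE 0.34, edgeR adjusted p = 4.73e-10), while its TPM was level (-0.07, SE 0.37, limma adjusted p = 0.884). The Snora73 reads are part of that count, at 94.4%, 102% and 98.0% of it in chromatin of mESC, mNPC and mCtx. That they followed the count was therefore given in advance. Snora73b had 22219, 22593 and 14952 in mESC chromatin, 16943, 17338 and 14928 in mNPC and 1280, 891 and 745 in mCtx. In counts 2 of 3 hosts passed between mNPC and mESC chromatin (background 76.5%) and 3 of 3 between mCtx and mNPC (background 69.4%). By TPM 2 of 7 passed between mCtx and mNPC chromatin (background 75.8%), Snhg5 higher by 0.67 and Snhg8 lower by -0.43. Both calls were lost on leaving out single libraries, with adjusted p from 0.0517 to 0.0802 for Snhg5 without any mCtx chromatin library or mNPC chromatin replicate 1 or 3, and from 0.0775 to 0.153 for Snhg8 without mCtx replicate 2 or mNPC replicate 2 or 3 (limma). With rescaled TPM all 7 were lower in mCtx (background 65.0%, 24.5% lower), from -1.46 to -0.48, so that the sign of Snhg5, Snhg6, Gas5 and Snhg12 turned.

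In cytoplasm the hosts did not move as a group. Between mNPC and mESC, Gas5 counts were higher by 2.24 (SE 0.11, edgeR adjusted p = 3.75e-16) while Snhg3 and Snhg12 were lower by -1.15 and -1.24 (3 of 3, background 76.0%). Gas5 TPM was level there (-0.04, SE 0.26, limma adjusted p = 1), with the high replicate 1 of mESC cytoplasm inside the mean, and its rescaled TPM was higher by 0.70 (SE 0.23, limma adjusted p = 0.0141). Snhg6 TPM was higher in mNPC cytoplasm by 0.72 (SE 0.22, limma adjusted p = 0.00922), though not without mESC cytoplasm replicate 3 (0.60, limma adjusted p = 0.055). Snhg1, Snhg3, Snhg5 and Snhg12 were lower by -1.98, -2.59, -1.41 and -2.17. The small drop of Snhg8 (-0.42, limma adjusted p = 0.045) was not called without mESC cytoplasm replicate 1 (-0.27, limma adjusted p = 0.266), without any 1 of the 3 mNPC cytoplasm libraries or with the replicate number as a block (limma adjusted p = 0.0566), and its rescaled value was 0.32. In all 6 of 7 passed by TPM (background 44.1%).

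From mNPC to mCtx cytoplasm, Gas5 and Snhg3 counts were lower by -0.89 and -3.08 (2 of 3, background 66.0%). By TPM Gas5 and Snhg8 were lower by -0.80 and -0.82 (2 of 7, background 31.9%). Against mESC, Gas5 counts in mCtx cytoplasm were higher by 1.35 (SE 0.10, edgeR adjusted p = 4.94e-12), but Gas5 TPM was lower by -0.84 (SE 0.26, limma adjusted p = 0.0079), or by -0.35 after rescaling (limma adjusted p = 0.225). In counts 3 of 3 passed there (background 81.6%). By TPM 6 of 7 passed (background 50.6%), all 6 lower (background 31.4%), with Snhg6 the exception at 0.45 (limma adjusted p = 0.0997). Snhg6 was called higher without the mESC libraries numbered 1 (0.647, limma adjusted p = 0.0261) and with rescaled TPM (0.935, limma adjusted p = 0.000238). In nucleoplasm the hosts passed in 3 of 3 counts and 7 of 7 TPM between mNPC and mESC (background 77.2% and 53.5%) and between mCtx and mESC (background 82.2% and 70.0%), and in 2 of 3 and 4 of 7 between mCtx and mNPC (background 71.8% and 73.4%). Between mNPC and mESC the counts went both ways, with Snhg3 higher by 1.56 and Gas5 and Snhg12 lower by -0.24 and -2.10, and 2 rather than 3 were called when any 1 of the 6 libraries was left out.

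The nested snoRNA genes were lower in differentiated chromatin with few exceptions. Of 27, 21 were lower and 3 higher in mNPC than in mESC chromatin (median -1.64, where 42.7% of all genes were lower and 33.8% higher), and 26 were lower and none higher in mCtx than in mESC (median -3.22, where 47.4% were lower). The 3 higher ones, Snord78, Mir5117 (named as a microRNA but typed as a snoRNA in the annotation) and Snord80, lie next to each other in Gas5. Snord78 had 227, 214 and 212 reads in mESC chromatin and 296, 393 and 310 in mNPC, Mir5117 had 68, 64 and 75 against 112, 137 and 102, and Snord80 135, 138 and 114 against 212, 236 and 199. The other 6 nested genes of Gas5 were lower in mNPC. These 3 were singled out after their values were seen.

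Whether the chromatin-to-cytoplasm ratio differed between cell types was tested directly, as a difference of the fraction contrasts. For Gas5 the ratio was lower than in mESC by a log2 difference of -2.72 in mNPC (SE 0.15, edgeR adjusted p = 6.58e-13) and -2.63 in mCtx (SE 0.15, edgeR adjusted p = 3.19e-13), and between mCtx and mNPC the difference was 0.09 (SE 0.14, edgeR adjusted p = 0.716). That last value depended on the method: it was 1.02 by TPM (limma adjusted p = 0.0186), 0.325 by DESeq2 (adjusted p = 0.0376) and -0.66 with total-count scaling (edgeR adjusted p = 0.000733). The mCtx value against mESC was smaller by TPM. It was -0.836 with a pseudocount of 0.1 (limma adjusted p = 0.0562) and -0.835 without a filter (limma adjusted p = 0.0626). For Snhg12 counts the ratio was lower at each step, by -0.71 from mESC to mNPC (SE 0.20, edgeR adjusted p = 0.00534). From mNPC to mCtx it was lower by -1.41 (SE 0.21, edgeR adjusted p = 1.07e-05), while Snhg12 TPM gave 0.12 for this step (limma adjusted p = 0.752). Against mESC, the mCtx ratio of Snhg12 was -2.12 by counts and -0.695 by TPM with a pseudocount of 0.1 (limma adjusted p = 0.0623). For Snhg3 counts no difference passed, with 0.85 (SE 0.43, edgeR adjusted p = 0.124) for mNPC against mESC, though that value passed with the replicate number as a block (0.83, edgeR adjusted p = 0.0298) and without the mESC libraries numbered 1 (0.72, edgeR adjusted p = 0.032).

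By TPM the largest ratio differences were those of the single-snoRNA hosts. Snhg6 was lower by -2.87 in mNPC (SE 0.31, limma adjusted p = 3.31e-07) and -2.21 in mCtx (SE 0.31, limma adjusted p = 2.93e-06) than in mESC, and Snhg8 by -1.94 (SE 0.24, limma adjusted p = 1.58e-06) and -1.56 (SE 0.24, limma adjusted p = 7.9e-06). Snhg5 was not called against mESC, at -0.60 in mNPC and -0.20 in mCtx, although with rescaled TPM the mCtx value was -0.887 (limma adjusted p = 0.00406) and without the mESC libraries numbered 1 the mNPC value was -0.89 (limma adjusted p = 0.0116). The Snhg1 value in mNPC was -0.74, and -1.24 without those libraries (limma adjusted p = 0.00331). In counts 2 of 3 hosts passed for mNPC against mESC (background 40.2%), 1 of 3 for mCtx against mNPC (background 34.0%) and 2 of 3 for mCtx against mESC (background 50.2%). By TPM the counts were 4 of 7 (background 44.6%), 1 of 7 (background 62.5%) and 4 of 7 (background 63.5%). Comparisons that share a group share its libraries, so their values are not independent.

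Genes related to the hosts by role were counted beside them in chromatin against cytoplasm. Of 21 protein-coding genes that host snoRNAs, most of them for ribosomal proteins and translation factors, 19 were lower and 2 higher in mESC chromatin, with a median of -2.79 against 0.36 over all tested genes, of which 32.9% were lower and 44.6% higher. In mNPC 17 were lower and 3 higher (median -4.40 against 0.06, background 32.5% lower and 37.0% higher). In mCtx 18 were lower and 1 higher (median -3.86 against 0, background 37.6% lower and 35.6% higher). The host of several snoRNAs Taf1d, which encodes a TATA-box-binding-protein-associated factor of RNA polymerase I, was higher by 1.87 in mESC, and Eif4a2, for a translation initiation helicase, by 2.82 in mNPC.

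Of 14 other noncoding hosts, 7 had enough counts, of which 3, 3 and 1 were higher and 1, 3 and 5 lower in mESC, mNPC and mCtx, beside the same shares of all genes. Snhg11 was higher in chromatin in each, by 1.83, 2.85 and 1.70, whereas Zfas1 was lower in mNPC by -1.76 and Epb41l4aos in mCtx by -1.95. Of 8 genes for core proteins of snoRNA particles, 7, 6 and 6 had RNA lower in chromatin (32.9%, 32.5% and 37.6% of all genes did). Among them were Fbl, for the methyltransferase fibrillarin, by -3.22 in mESC, and Nop10, for a box H/ACA protein, by -4.28 in mCtx. Of 10 genes for nonsense-mediated decay factors, 5, 5 and 6 were higher and 5, 4 and 3 lower, where 44.6%, 37.0% and 35.6% of all genes were higher. Between cell types, RNA of 8 of 8 core protein genes was lower in mNPC than in mESC chromatin (median -1.90) and of 8 of 8 in mCtx (median -2.15). RNA of 18 of 21 and 21 of 21 coding hosts was lower too (medians -1.89 and -2.37), and some genes are in both lists. The median over all tested genes was -0.18 and -0.38 in these comparisons, with 42.7% and 47.4% of genes lower.

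Across the 9 group means, the members fell into like and unlike patterns, given as a description of 9 points that share cell type and library scale. On log2(TPM + 1), Snhg1 and Snhg12 had a Pearson correlation of 0.964, Snhg1 and Snhg3 0.941, and Snhg5 and Snhg6 0.007. The non-member genes most like each host were Gm14325 (0.963), Spred1 (0.930) and Rfesd (0.922) for Gas5, and Snhg15 (0.988), Ceacam1 (0.976) and Zfp809 (0.972) for Snhg12, by log2 CPM over 10916 or 10917 genes. Reads over Snhg3 were counted for the overlapping Rcc1 too, which fixed their likeness in advance. For Snhg3 the genes most alike were Rcc1 (0.991), Ttf1 (0.990) and Gm26448 (0.989). By TPM over 5028 to 5030 genes, they were Pml, Gm17300 and Rbpms for Snhg1 (0.988, 0.985 and 0.983) and Alkbh1, Mbtd1 and Txlng for Snhg5 (0.994, 0.991 and 0.988). They were Selenot, Atp5j and Nucks1 for Snhg6 (0.927, 0.911 and 0.904) and Ccnb1ip1, Epb41l4aos and Lypla1 for Snhg8 (0.997, 0.959 and 0.954). Ccnb1ip1 and Epb41l4aos head the Snhg8 list, the latter itself a noncoding snoRNA host. Gm17300, the gene antisense to Snhg3, had at most 13 reads in any library, although genes compared by TPM had a mean of 10 or more. The cause of that gap was not tested, nor whether TPM kept the strands apart at Snhg3.

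Promoter sequence was looked at because the hosts moved down together from mESC chromatin. RefSeq (GRCm38.p6) gave 7 promoters for 6 of the 7 genes, 2 for Gas5 and none for Snhg6. A run of at least 5 pyrimidines that begins with C within 5 bases of the start, read on the gene's strand, was present in 4 of 7 windows and in 18.3% of 32851 promoters. TATAA between 45 and 16 bases before the start was present in 3 of 7 against 3.89% of all promoters, and on the opposite strand in 2 of 7 against 1.96%. Both the run and TATAA occurred in 2 of 7 windows, those of Snhg12 and Snhg8, and in 0.8% of all. These matches are letters in a window and not mapped binding or start sites. The windows below run from 41 bases before to 21 bases from the start on, 62 bases in all, with the pyrimidine run and TATAA in capitals. They lie at chr1:161035125-161035186 (plus, the second start of Gas5), chr4:132308637-132308698 (plus, Snhg12), chr3:123508316-123508377 (minus, Snhg8), chr9:88522877-88522938 (minus, Snhg5) and chr4:132353666-132353727 (minus, Snhg3).
Gas5: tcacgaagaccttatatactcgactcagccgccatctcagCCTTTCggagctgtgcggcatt
Snhg12: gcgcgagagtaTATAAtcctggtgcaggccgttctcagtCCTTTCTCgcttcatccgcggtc
Snhg8: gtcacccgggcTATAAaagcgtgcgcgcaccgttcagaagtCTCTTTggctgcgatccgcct
Snhg5: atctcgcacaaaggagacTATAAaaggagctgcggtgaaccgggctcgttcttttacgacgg
Snhg3: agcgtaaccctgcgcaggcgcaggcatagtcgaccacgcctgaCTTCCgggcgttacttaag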

How the data were processed

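The authors deposited a table of whole-number read counts per gene and a table of TPM per gene for the same 27 libraries. Per the submitters' processing notes, STAR, kallisto, featureCounts and the mm10 build were used, with versions and roles not given in the sources used here. The chromatin columns of the deposited counts were recorded under the unit expected count only because their abbreviated header reads like a position, and they hold whole numbers like the rest. In the deposited counts the stated length of each of the 37332 genes is its span from start to end. Which reads count for a gene was not stated and was read off the counts.

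Counts of the 27 libraries went into a single edgeR 4.0.16 model under R 4.3.3, which had a term for each of the 9 groups, used trimmed-mean normalization and dropped low-count genes by default (18249 genes kept, 18 residual degrees of freedom). TPM was fitted with limma 3.58.1 on log2(TPM + 1), with trend, over 25256 genes at a TPM of 1 or more in 3 libraries. A fold change on that scale understates changes of low genes. Rescaled TPM is TPM divided by a median-ratio factor per library, over 22800 genes. Adjusted p-values are Benjamini-Hochberg within a comparison over all tested genes, called at 0.05. The planned test was on counts, so for Snhg1, Snhg5, Snhg6 and Snhg8, which have no count row, only the TPM test exists. Likewise, patterns of these 4 were compared by TPM rather than by CPM.

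The alternatives tried were scaling by total count or by median ratio, DESeq2 1.42.0, keeping low-count genes, fitting the compared groups alone, TPM with a pseudocount of 0.1 or without a filter, the replicate number as a block, and each library left out. A fit without the mESC libraries numbered 1 was added after seeing the data. Libraries with the same number deviated together from their group means with a correlation of 0.19 to 0.55 between mESC fractions, which the data thus pair, and of -0.01 to 0.12, -0.03 to 0.04 and -0.03 to 0.04 for mNPC fractions, mCtx fractions and cell types, which were not. The tests were also run on simulated data with few changed genes, the same dispersion for every gene and no pairing. These settings differ from the data here, so that run gives no error rate for the comparisons above. The members and gene lists were chosen with earlier results of these data known. Named genes are the members, the snoRNA genes inside them, the 2 largest called changes per side of each list and the 3 genes most like each member. Some genes that this rule names are not reported here. Intervals between replicates cover only the spread between these cultures. Figures used matplotlib 3.10.9.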

Additional observations from a re-analysis of the deposited data

Results flagged for a closer look

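The tested difference of the chromatin-to-cytoplasm ratio between cell types marked 9 results for a closer look. For span counts (edgeR), the log2 differences against mESC were -2.72 (adjusted p = 6.58e-13) in mNPC and -2.63 (adjusted p = 3.19e-13) in mCtx for Gas5, and -0.71 (adjusted p = 0.00534) and -2.12 (adjusted p = 5.31e-09) for Snhg12. Between mCtx and mNPC, the Snhg12 difference was -1.41 (edgeR adjusted p = 1.07e-05). For TPM (limma), the differences were -2.87 (adjusted p = 3.31e-07) and -2.21 (adjusted p = 2.93e-06) for Snhg6, and -1.94 (adjusted p = 1.58e-06) and -1.56 (adjusted p = 7.9e-06) for Snhg8, in mNPC and mCtx against mESC. All 9 are lower than in the compared cell type. Without the mESC libraries numbered 1, the 8 that involve mESC kept their direction and passed. By TPM with a pseudocount of 0.1, the mCtx differences against mESC were -0.836 for Gas5 and -0.695 for Snhg12. Neither passed (limma adjusted p = 0.0562 and 0.0623).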

How the results depend on the processing

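All values are log2 fold changes or counts of members called. Snhg3 chromatin over cytoplasm turned from positive in counts to negative in TPM: for mESC, mNPC and mCtx it was -0.217, -0.74 and -0.621 by limma on log2(TPM + 1) or without a filter, -0.218, -0.935 and -0.884 with a pseudocount of 0.1, and -0.946, -1.25 and -1.619 with rescaled TPM. Rescaled TPM also gave -0.658 for Snhg8 in mESC, -0.9 for Gas5 in mNPC, and -0.803 for Gas5 and -0.699 for Snhg1 in mCtx, where total-count scaling gave -0.386 for Gas5. Snhg12 in mCtx became 0.893 with TPM, filtered or not, and 0.941 with a pseudocount of 0.1. Gas5 in cytoplasm became -0.039 for mNPC against mESC with each of the 3 TPM settings, and for mCtx against mESC -0.839, -0.846 (pseudocount 0.1) and -0.348 (rescaled). Snhg8 there became 0.315 for mNPC against mESC when rescaled. For mCtx against mNPC in chromatin, TPM gave 0.217 (pseudocount 0.1, 0.218) for Gas5 and 0.287 (0.3) for Snhg12, and rescaling gave -0.479 for Snhg5 and -0.667 for Snhg6. The ratio of mCtx against mNPC became -0.66 for Gas5 with total-count scaling, and 0.12 or 0.119 for Snhg12 with TPM. The cause was not tested. Counts cover spans and TPM transcripts, but how far these differ in bases depends on the host. The exons of all transcripts together cover 2402 of 2402 bases in Snhg12, 3760 of 4118 in Gas5 and 986 of 5673 in Snhg3.

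Of the hosts with counts, TPM settings called 1 in mNPC chromatin against cytoplasm, 1 in mESC and 0 in mCtx nucleoplasm against cytoplasm, 0 in mCtx against mNPC chromatin and 1 in that cytoplasm. Rescaled TPM called 1 and 0 in nucleoplasm against chromatin of mESC and mCtx, and 1 in nucleoplasm against cytoplasm of mESC and mNPC. Total-count scaling called 0, and the compared groups alone 2, in nucleoplasm against chromatin of mCtx. For the ratio, total-count scaling called 3 and DESeq2 2 in mCtx against mNPC, and in mCtx against mESC a pseudocount of 0.1 called 0 and no filter 1. Of the 7 with TPM, rescaling called 2 and 6 in nucleoplasm against cytoplasm of mESC and mCtx, and 7 and 4 in chromatin and cytoplasm of mCtx against mNPC. The compared groups alone called 5 in both nucleoplasm comparisons of mCtx, 1 in mCtx against mNPC chromatin, and 3 and 2 for the ratios of mCtx against mNPC and mESC, where a pseudocount of 0.1 called 2. Leaving out single libraries gave 1 to 3 hosts by counts in nucleoplasm against chromatin of mNPC and, by TPM, 1 to 4 in nucleoplasm against cytoplasm of mESC, 0 to 1 and 1 to 2 in chromatin and cytoplasm of mCtx against mNPC, and 1 to 2 and 2 to 4 for those ratios.

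With the replicate number as a block, 3 of 7 members rather than 1 were called by TPM in nucleoplasm against cytoplasm of mESC, whose libraries the numbers pair, and 4 without the mESC libraries numbered 1. The block also gave the Snhg3 ratio in mNPC against mESC (0.827, edgeR adjusted p = 0.0298) and took the call from Snhg8 in mNPC against mESC cytoplasm (-0.422, limma adjusted p = 0.0566), and it changed no other member count. Nested snoRNA genes higher in chromatin than in cytoplasm numbered 27 in mESC and mNPC under each count-based alternative, and 14 to 20 in mCtx. Low counts, as of Snord87 in mCtx, limit what could be detected.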
